A study of Canis lupus familiaris with 28 samples.

Results

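Blood-enriched genes, the genes whose reads made up a larger share of blood libraries than of liver, lung or spleen libraries, were described across canine histiocytic sarcoma (HS) tumors, HS cell lines and a dendritic cell strain. For each gene, CPM was the count divided by the library's total and scaled by 1000000, and levels were log2(CPM + 1). The members, chosen by their levels in the controls, were the 100 genes, of 32704 identifiers, with the largest difference between the lowest of 3 blood controls and the highest of the liver, lung and spleen controls, after 38 identifiers were set aside. The rule used the controls only. The values of the controls are therefore a description with no test, while the tumors and the cell libraries were not used to choose the genes.

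HS is a cancer of histiocytes, the macrophage and dendritic cell lineage, and Bernese Mountain Dogs (BMDs) are prone to it. RNA was taken from frozen tumors of 18 BMDs, 15 labelled HS and 3 labelled hemophagocytic histiocytic sarcoma (HHS), a form in which the tumor cells engulf blood cells. The controls were blood of 3 unaffected BMDs and 1 liver, 1 lung and 1 spleen of German Shepherd Dogs (GSDs). The tumors were labelled lung (6), liver (4), spleen (2), thorax (2), thoracic mass, leg mass, shoulder and lymph node. The cell libraries were the HS lines BD and OD, each from a BMD, PJ, from a Rottweiler, and DC3F9, an unaffected dendritic cell strain of a mongrel that had been grown from blood monocytes with GM-CSF and IL-4. DC3F9 was 1 library, labelled unstimulated, so it carries no replicate error, and the 3 lines were taken as replicates although each came from another dog.

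Blood is rich in circulating white cells, red cells and platelets, and a read share that is high in blood can come from any of them. Monocytes circulate in blood and give rise to macrophages and to some dendritic cells in tissues, so a histiocytic tumor can carry leukocyte transcripts of its own as well as those of the blood in its vessels. The spleen filters and stores blood cells. In bulk libraries, fewer cells of a type and less RNA per cell cannot be told apart.

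Each tumor had between 99701394 and 171815073 counts in all, each control between 133524755 and 180801439, and each cell library between 82007857 and 131518875. Globin and ribosomal RNA were depleted from the tissue and blood libraries. The study left 1 control out of its own comparisons as an outlier, and its control columns lack the liver. All 6 controls were kept here because the rule names them. Without the liver control 90 of the 100 members stayed in the list. The names of the blood libraries carry another prefix than those of the remaining controls and all tumors, taken here as the flow cell. Blood thus differs from the solid organs in prefix, breed and tissue at once, and their effects are not separable. The tumors share the prefix with the solid organs and the breed with blood. Any part of flow cell or breed in where the tumors lay between these controls was not tested. The cell libraries were counted in a table of their own, and the labels and the study's methods name different library kits for them, so their levels and those of the tumors were not normalized together. The blood controls were also described by 17 leukocyte signalling genes, none of them a member. These were drawn from the names at hand with earlier results known, so they are no independent check of the label. In 15 of these 17 the lowest blood control was above the highest solid organ control, and their mean level was 6.96 to 7.41 in blood and 1.78 to 5.53 in the solid organs. The lists of neutrophil, red cell, platelet, lymphocyte, macrophage, hepatocyte and endothelial markers had a name for 4% to 66.7% of their genes, so those lists are void as checks.

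Of the 100 members, 1 had a name in the tables at hand, SOD2 (ENSCAFG00000000671), the mitochondrial manganese superoxide dismutase. The remaining 99 are given by identifier and their functions are not stated. The 3 largest differences between the lowest blood and the highest solid organ control were 5.75 for ENSCAFG00000003376, 5.63 for ENSCAFG00000025287 and 5.52 for ENSCAFG00000032925, and the median over members was 3.46. The last gene inside the list was ENSCAFG00000016335, at 2.8712. The first outside was ENSCAFG00000013093, at 2.8666. ENSCAFG00000000675, at rank 103, was DCSTAMP, which encodes a membrane protein of dendritic cells. The highest solid organ control was the spleen for 53 members, the lung for 44 and the liver for 3.

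Across the tumors, the members parted into genes that stayed at the level of the solid organs and genes that sat above them, and few reached blood. At the median of the 18 tumors, 2 members were at or above the lowest blood control, 50 lay between the lowest blood and the highest solid organ control, and 48 were at or below the highest solid organ control. All 18 tumors were below all 3 blood controls in 68 members, against 8.71% of 14795 genes with at least 1 CPM in 3 libraries. No member had all tumors above all blood controls, against 11.9% of the same genes. All tumors were above all 3 solid organ controls in 16 members, against 3.02% of 14955 genes. Since the rule placed blood above the solid organs in every member, these shares are a description. The classes were drawn from the tumor values and carry no test.

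**Figure D1:**
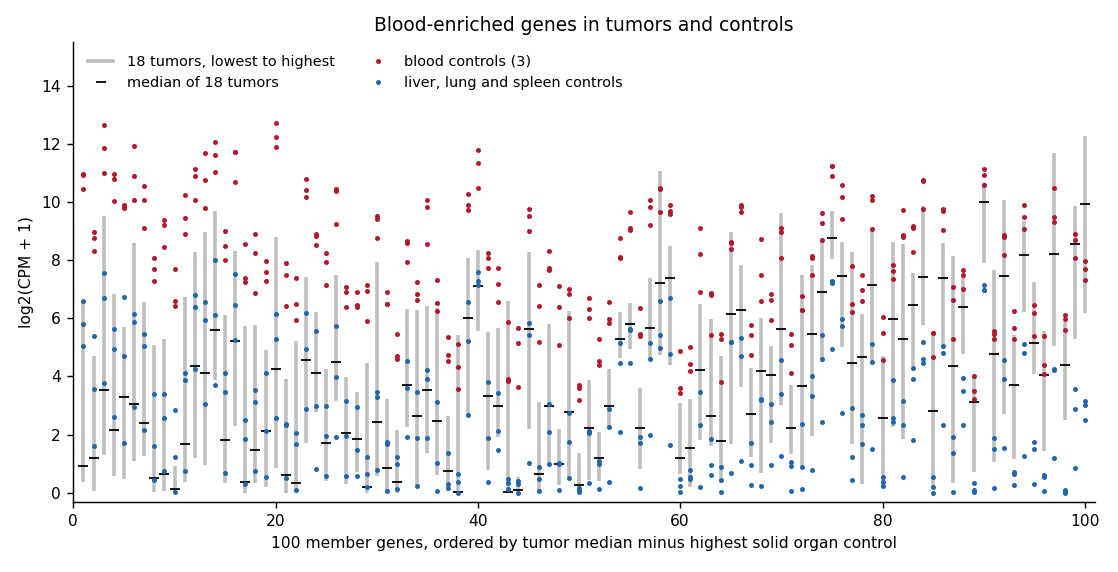
Level of each of the 100 members as log2(CPM + 1), ordered by the tumor median minus the highest solid organ control. Grey bars span the 18 tumors, black dashes are their medians, red points are the 3 blood controls and blue points the liver, lung and spleen controls. In 48 members the tumor median lies at or below the highest blue point, and in 2 it reaches the lowest red point.

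In the 48 members at the level of the solid organs, the tumor median ran from 0.01 to 7.11, with a median of 2.15. ENSCAFG00000003376, the member with the largest difference, was at 12.72, 12.24 and 11.89 in blood and at 2.57 in liver, 6.14 in lung and 5.28 in spleen. In the tumors it ran from 0.85 in HS14 over a median of 4.25 to 8.78 in HS51, and 15 of 18 tumors were at or below the lung control. Its highest tumor thus stayed below its lowest blood control.

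SOD2 detoxifies superoxide in mitochondria and is present in most cells. It was at 11.35, 11.80 and 10.49 in blood and at 7.30 in liver, 7.58 in lung and 7.13 in spleen. Its tumors ran from 5.57 in HS14 to 8.34 in HS51, with a median of 7.11 and an SD of 0.69 (n = 18). It lay at or below its highest solid organ control in 15 of 18 tumors and in no tumor reached blood.

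The 3 lowest tumor medians were close to no reads at all. ENSCAFG00000040152 was at 5.10, 4.33 and 3.58 in blood, and its tumor median was 0.01. In HS14, however, it was at 5.42, above every blood control, and the next highest tumors, HS4 and HS51, were both at 1.99. ENSCAFG00000010339 was at 3.86, 5.87 and 3.91 in blood and had a tumor median of 0.04, yet it was at 6.59 in HS47, a lung tumor, and at 2.54 in HS51. Both genes were thus near 0 in most tumors and high in 1. ENSCAFG00000011534 was at 5.67, 5.16 and 3.64 in blood and never above 0.54 in a tumor. Across all 100 members, 12 had 3 counts or fewer in at least 1 tumor, the least that can be told from 0 at this depth, and 2 had so few in at least 9 of the 18.

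All tumors were at or below the highest solid organ control in 3 members, ENSCAFG00000013879, ENSCAFG00000010457 and ENSCAFG00000023035, which are named after their values were seen.

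The 2 members at the level of blood were the opposite case. ENSCAFG00000005494 was at 7.70, 7.96 and 7.32 in blood and between 2.49 and 3.14 in the solid organs. Its tumors ran from 6.17 in HS14 over a median of 9.93 to 12.27 in HS29, and 15 of 18 were above the highest blood control. It was the only member whose tumor median exceeded every blood control. ENSCAFG00000028453, named after its values were seen, was at 8.91, 8.70 and 8.09 in blood and at most 3.56 in a solid organ. Its tumors ran from 5.28 in HS14 to 9.85 in HS46, with a median of 8.54, and 11 of 18 reached the lowest blood control. In both genes every tumor stood above every solid organ control, and HS14 was the lowest tumor.

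The 50 members in between had tumor medians from 0.27 to 9.99. The highest belonged to ENSCAFG00000007203, at 10.58 to 11.12 in blood, 6.97 to 7.13 in the solid organs and 7.89 to 10.70 in the tumors, with 2 tumors in the range of blood. ENSCAFG00000016076 had a tumor median of 8.75 and a narrow range, from 8.03 to 9.68, above its highest solid organ control (7.28) and below its lowest blood control (10.90) in every tumor. Both genes were above every solid organ control in every tumor.

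ENSCAFG00000032925 was at 5.60 to 6.11 in blood and at 0.08 or less in liver, lung and spleen. In the tumors it ran from 2.49 in HS14 to 5.88 in HS35, with a median of 4.39. All 18 tumors thus carried a transcript that these organ controls scarcely held. The cultured lines held it too, from 3.62 (OD) to 4.82 (BD), and DC3F9 had a level of 3.53. The organ controls were the only libraries of GSDs, and the part of breed in this gene was not tested. ENSCAFG00000025287 was at 8.80 to 9.72 in blood and at most 3.17 in a solid organ. Its tumors spread from 1.84 in HS35 over a median of 5.30 to 8.55 in HS34, none of them reaching blood. At the edge of the list, ENSCAFG00000016335 was at 3.22 to 4.03 in blood, at most 0.35 in a solid organ and at 0.72 to 4.05 in the tumors, of which 7 reached the lowest blood control.

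Counted by tumor, the members at or above the lowest blood control numbered between 1 (HS33) and 13 (HS47), with a median of 7. In all, 32 members reached the lowest blood control in at least 1 tumor. The members at or below the highest solid organ control numbered 11 in HS51 and 38 to 64 in the remaining tumors. The members took 0.416% to 1.11% of the counts of a tumor, 4.25% to 7.45% of a blood control and 0.0747% to 0.267% of a solid organ control. The 3 blood controls differed among themselves, and the lowest share was that of the blood control numbered 35116.

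The median level of the 100 members was 7.48 to 8.05 in blood, 3.15 in the spleen control, 3.27 in the lung control and 0.75 in the liver control. In the tumors it ran from 2.43 in HS35 over 3.57 at the median to 5.31 in HS51, an HS tumor labelled spleen. The next highest was HS46, at 4.37, and the lowest after HS35 was HS53, at 2.62. The other spleen tumor, HS29, was at 3.17. Both spleen tumors had a similar share of counts on members, 1.05% in HS51 and 1.02% in HS29, so the share and the median of the members did not order the tumors alike.

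**Figure D2:**
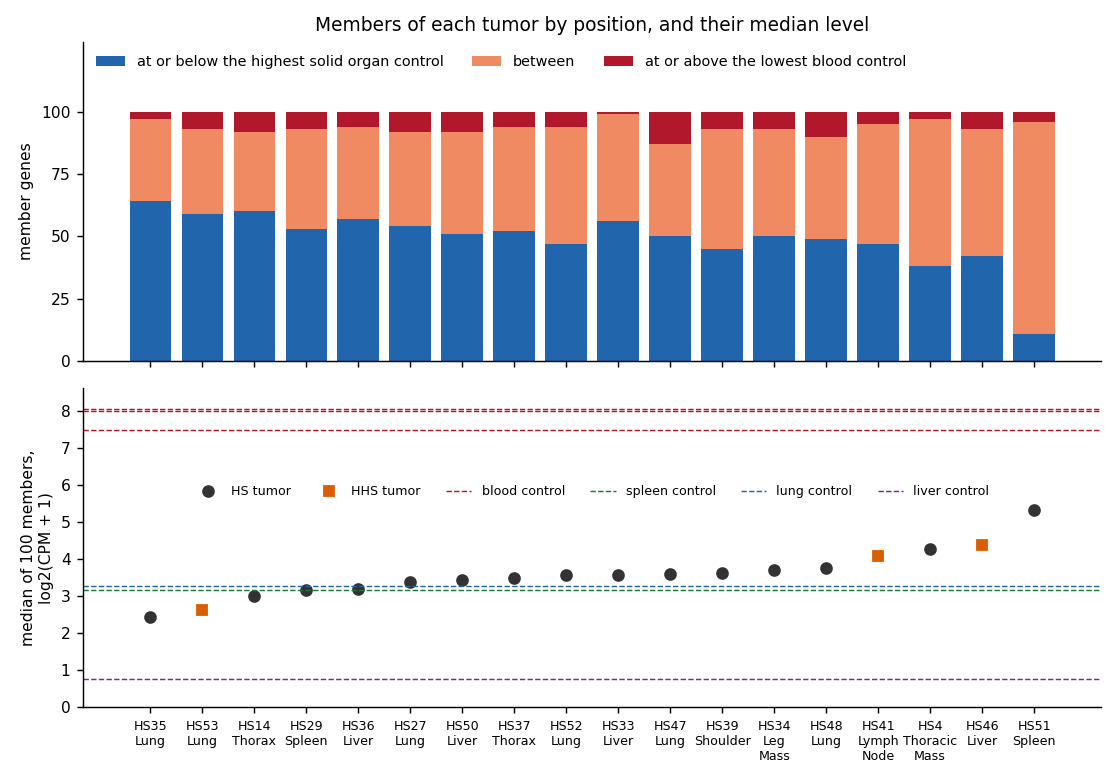
For each tumor, ordered by its median member level, the upper panel counts the members at or below the highest solid organ control, between, and at or above the lowest blood control. The lower panel gives the median level of the 100 members as log2(CPM + 1), with HS and HHS tumors as circles and squares and the controls as dashed lines. HS51 has 85 members in between and 11 at the solid organ level, and all 18 tumors lie below the blood controls.

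HS51 was the highest tumor for 33 of the 100 members, followed by HS39 for 11. In 21 members HS51 was above every other tumor by at least 1 on the log2 scale. The lowest tumor was HS14 for 19 members, HS35 for 16 and HS53 for 15. Genes of the marker lists, none of them a member, also differed between HS51 and the other tumors. All 5 named red cell genes were highest in HS51. The erythroid ubiquitin ligase gene TRIM58 was at 4.30 in HS51 and at most 0.23 in any other tumor, and TSPAN33, a tetraspanin gene of erythroid cells, was at 6.78 against at most 2.06. The mean of the 5 red cell genes was 5.45 in HS51 and 1.16 to 1.99 in the other 17 tumors, while it was 3.62 to 5.03 in blood, 2.23 to 3.97 in the solid organs and 2.14 to 2.35 in the cell libraries. In 4 of these 5 genes the lowest blood control was below the highest solid organ control. TSPO2, another gene of this list, was at 4.41 in HS51, at most 0.09 in any other tumor and at 0 to 0.49 in blood. In FECH, TRIM58, TSPAN33 and UBE2H, HS51 lay inside the range of the blood controls. The 3 named platelet genes averaged 3.66 in HS51 against 1.06 to 1.90 in the other tumors and 5.57 to 6.71 in blood. Of these, 2 were highest in HS51, while GRAP2 was at 4.38 in HS51 and at up to 4.80 in another tumor. HS51 also had the highest mean of the 17 leukocyte signalling genes (6.17, next 6.03), the 1 named B cell gene (2.87, next 2.58), the 4 named endothelial genes (4.153, next 4.144) and the 1 named neutrophil gene (0.10, next 0.08), by smaller margins. The 8 named macrophage and dendritic cell genes averaged 7.79 in HS51, inside the range of the other tumors (5.97 to 8.52). The 5 named T and NK cell genes (2.15 against 0.39 to 3.53) and the 8 named hepatocyte genes (1.86 against 0.78 to 3.18) were also inside the ranges of the other tumors. The leukocyte signalling list was drawn from the names at hand, and each other list has a name for too few of its genes. None of the lists therefore stands for a cell type, and the part of any of them in the level of the members was not tested.

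The members also varied more between tumors than most genes. Their SD over the 18 tumors was 0.17 to 2.11, with a median of 1.23. The median was 0.67 over the 14402 genes kept by a filter on low counts, set over the 18 tumors without groups. Above that median were 90 of the 100 members. Only 90 of the 100 members passed this filter, and the values of the members cover all 100, so the sets are not quite alike. The largest SD was that of ENSCAFG00000023324, 2.11, with tumors from 0.95 in HS50 over a median of 4.11 to 8.96 in HS51. ENSCAFG00000029470 had an SD of 1.99 and tumors from 1.29 in HS50 to 9.53 in HS51, with a median of 3.53. Both were at the solid organ level in the median tumor and in blood at 9.80 to 12.66. ENSCAFG00000016584 also had an SD of 1.99, but its order of tumors was another one. It ran from 3.01 in HS39 over a median of 5.64 to 9.62 in HS14 and in HS36, where it passed its highest blood control (9.11), and it was at 5.48 in HS51.

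Each member was also correlated with the mean of the other 99 over the 18 tumors, which share libraries and depth. Pearson's r ran from -0.29 to 0.90, with a median of 0.36, and 15 members were below 0. Of the members 36% were above 0.5, against 6.55% of 14312 other genes, whose median was 0.09. The 3 highest were ENSCAFG00000024196 (r = 0.90), ENSCAFG00000003376 (r = 0.89) and ENSCAFG00000014612 (r = 0.88). Without HS51 the median r was 0.33 and 26 members were above 0.5, so that part of the covariation rested on this tumor.

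The genes that varied together were mostly those at the level of the solid organs, a split made on the same tumors and given as a description. Of the 36 members above 0.5, 34 had their tumor median at or below the highest solid organ control and 2 lay between. The median r was 0.66 in the 48 members at the solid organ level and 0.18 in the 50 between. HS51 was the highest tumor for 29 of the 36 and for 4 of the remaining 64. The median level of the 36 ran from 0.79 in HS53 over 2.32 to 5.88 in HS51, with HS46 next at 3.45. That of the 64 was lowest in HS35, 4.31 in the median tumor and highest, at 5.05, in HS51, with HS48 next at 4.92. The SD over tumors was 1.13 for the 36 and 0.45 for the 64. The 36 were at 8.47 to 8.94 in blood, 3.94 in the spleen and 3.55 in the lung control, and the 64 at 6.97 to 7.49, 2.49 and 2.62. The 36 thus sat below the spleen control in the median tumor and the 64 above it.

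ENSCAFG00000024196 shows the first pattern. It was at 7.49, 7.89 and 6.43 in blood and at 2.36 in spleen. Its tumors ran from 0.01 in HS35 over a median of 0.62 to 3.90 in HS51, and HS4, at 2.20, was the next highest. ENSCAFG00000014612 was at 9.39, 9.22 and 8.44 in blood, and its tumors ran from 0.07 in HS29 over 0.66 to 5.30 in HS51. Both spleen tumors thus lay at opposite ends of its range. ENSCAFG00000032925, at r = -0.29, was the lowest of all members.

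**Figure D3:**
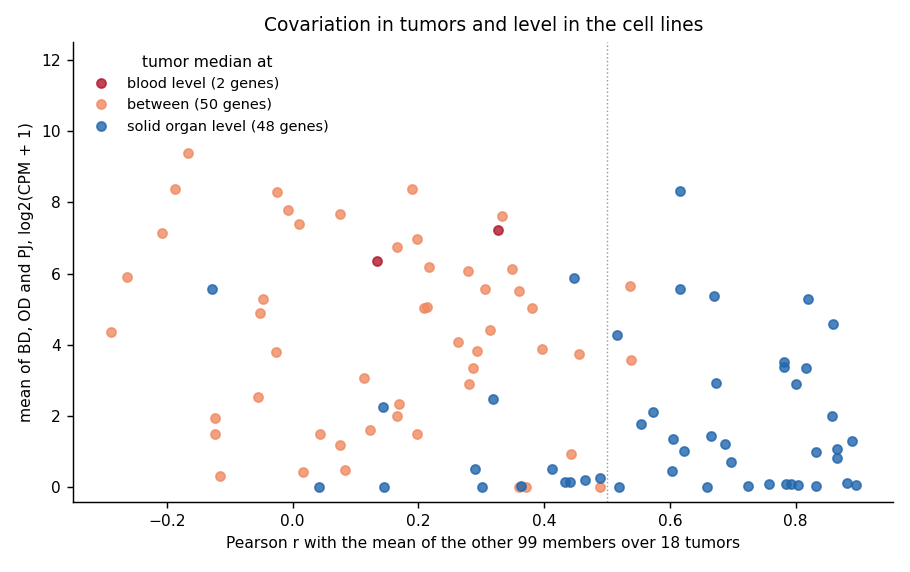
Each point is 1 of the 100 members, placed by its Pearson r with the mean of the other 99 over 18 tumors and by its mean level in BD, OD and PJ as log2(CPM + 1). Colors give the position of the tumor median between the controls, and the dotted line marks r = 0.5. Right of the line lie 36 members, 34 of them at the solid organ level.

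Tumors labelled spleen were compared with the 16 others to ask whether the members were higher where blood cells are stored. edgeR's quasi-likelihood test called 4 of 100 members with cutoffs of 1.5 for the size of the log2FC and 0.05 for the adjusted p, all 4 higher in spleen tumors. Over all 20864 genes tested, 0.637% were called, 0.628% as higher and 0.00959% as lower. No member had both spleen tumors above all others, against 1.33% of genes, or both below, against 0.647%. The median log2FC was 0.53 over the members and -0.13 over all genes, and 25 members had an unadjusted p under 0.05, as did 2240 genes (10.7%). DESeq2 called 9 members, against 2.26% of genes.

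ENSCAFG00000017772 was at 1.94 in HS29 and 5.75 in HS51, and at 0.35 to 2.53 in the other tumors, with a median of 1.34. Its log2FC was 3.71 (SE 0.60, adjusted p = 0.00262). ENSCAFG00000017557 was at 4.05 and 8.59 in these spleen tumors and at 1.09 to 5.55 in the others, with a log2FC of 3.74 (SE 0.82, adjusted p = 0.0338). In both genes HS29 lay inside the range of the other tumors and HS51 far above it.

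ENSCAFG00000019877 was at 0.67 in HS29 and 5.21 in HS51, against 0 to 1.71 in the others, with a log2FC of 5.20 (SE 1.20, adjusted p = 0.0499). ENSCAFG00000030927, named after its values were seen, was at 2.25 and 6.10 against 0.34 to 2.95, with a log2FC of 3.46 (SE 0.72, adjusted p = 0.0212). The groups overlapped in all 4 members through HS29. Without HS51 none of the members was called, and their log2FC were 1.02 for ENSCAFG00000017772, 0.67 for ENSCAFG00000017557, 0.89 for ENSCAFG00000019877 and 0.83 for ENSCAFG00000030927, where HS29 is a lone sample assumed to vary like the other tumors. Without HS29, 10 members were called, all higher, against 1.48% of 22553 genes called and 1.45% called higher. The calls therefore rested on HS51. In the same test TRIM58 and TSPAN33 of the red cell list and LY6G6F, a platelet gene, were also called higher, with log2FC of 8.82, 5.44 and 5.63. The remaining genes tested from both lists were not called. Their log2FC were 2.16 for FECH and 0.06 for UBE2H of the red cell list, and 1.54 for MPIG6B and 0.34 for GRAP2 of the platelet list. Whether red cells or platelets have a part in the 4 members was not tested.

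**Figure D4:**
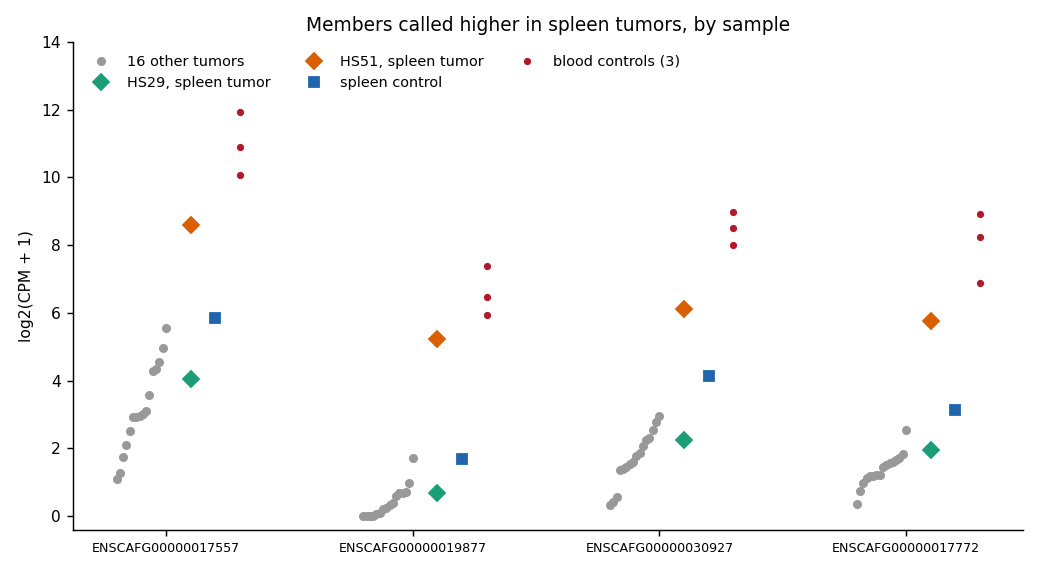
Levels as log2(CPM + 1) of the 4 members called higher in spleen tumors, with the 16 other tumors in grey, the spleen tumors HS29 and HS51 as diamonds, the spleen control as a square and the blood controls as red points. HS51 lies above all other tumors and above the spleen control in each gene, while HS29 lies among the other tumors.

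SOD2 did not pass the test between spleen and other tumors. It was at 5.89 in HS29 and 8.34 in HS51, and at 5.57 to 7.97 in the others, with a log2FC of 0.30 (SE 0.43, adjusted p = 0.815).

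HHS tumors were compared with HS tumors. edgeR called 0 of 100 members and 0% of 19853 genes, and 1 member and 797 genes had an unadjusted p under 0.05. DESeq2 also called 0 members, and 0.00504% of genes. No member had all HHS tumors above all HS tumors, against 0.0604% of genes, or below them, against 0.0353%. The median level of the members was 2.62 (HS53), 4.08 (HS41) and 4.37 (HS46) in the HHS tumors, inside the range of the HS tumors (2.43 to 5.31). The member with the smallest p, ENSCAFG00000013904, named after its values were seen, was at 6.19, 6.47 and 6.54 in HHS and at 4.96 to 6.53 in HS, with a median of 5.67. Its log2FC was 0.58 (SE 0.25, adjusted p = 0.943), and the groups overlapped. SOD2 was at 6.63, 7.19 and 7.55 in HHS and at 5.57 to 8.34 in HS (adjusted p = 1.00, SE of the log2FC 0.38).

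Lung tumors were compared with liver tumors, whose host organs differ in the members, the lung control being at 3.27 and the liver control at 0.75 for the median member. The ranges of the tumors overlapped. The median member was at 2.43 to 3.76 in the 6 lung tumors and at 3.19 to 4.37 in the 4 liver tumors. edgeR called 0 of 99 members and 0% of 17671 genes, with 9 members and 907 genes at an unadjusted p under 0.05, and DESeq2 called 1 member and 99 genes (0.56%). That member, ENSCAFG00000014928, was at 2.60 to 5.97 in lung tumors and 1.86 to 2.63 in liver tumors (edgeR log2FC 2.46, SE 0.63, adjusted p = 0.949). The groups of 1 member did not overlap, ENSCAFG00000011525, at 0.68 to 3.69 in lung and 4.66 to 5.63 in liver tumors, against 0.221% of genes with all lung tumors below all liver tumors. Both genes are named after their values were seen. SOD2 was at 6.31 to 7.27 in lung and 6.82 to 7.55 in liver tumors, with a log2FC of -0.35 (SE 0.28, adjusted p = 1.00).

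The cell lines and DC3F9 were grown in culture, and the members were measured in them without other tissue. At least 1 CPM was found for 65 members in BD, for 66 in OD and PJ alike and for 69 in DC3F9, against 35.8%, 36.5%, 36.8% and 35.4% of all identifiers. All 100 members had at least 1 CPM in each blood control, while the identifiers include genes without a count in any cell library. These shares therefore do not compare like sets of genes. All 3 lines passed 1 CPM in 56 members, and 26 members were at a level under 1, which is 1 CPM, in all 3. The median member was at 2.57 in BD, 2.83 in OD and 2.48 in PJ, and DC3F9 stood at 2.68. With 3 counts as the floor, 7 to 18 members per cell library could not be told from 0.

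The members at low levels in the lines were mostly those at the solid organ level in tumors. Of the 26 members under 1 in all 3 lines, 22 were at the solid organ level and 4 between. The mean of the lines had a median of 4.22 over the 50 members between and of 1.01 over the 48 at the solid organ level, and DC3F9 was at 3.60 and 1.21. The 36 members that varied together had a median of 1.33 in the lines, and the other 64 one of 3.77. Across the 100 members, the tumor median had a Pearson r of 0.72 with the mean of the lines, 0.77 with DC3F9 and 0.54 with the mean of blood. Genes are not independent replicates, and the tumor and blood libraries share a table that the cell libraries do not. The members were chosen by their levels in blood and not in the cell libraries. These r therefore do not rank blood against the cells.

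**Figure D5:**
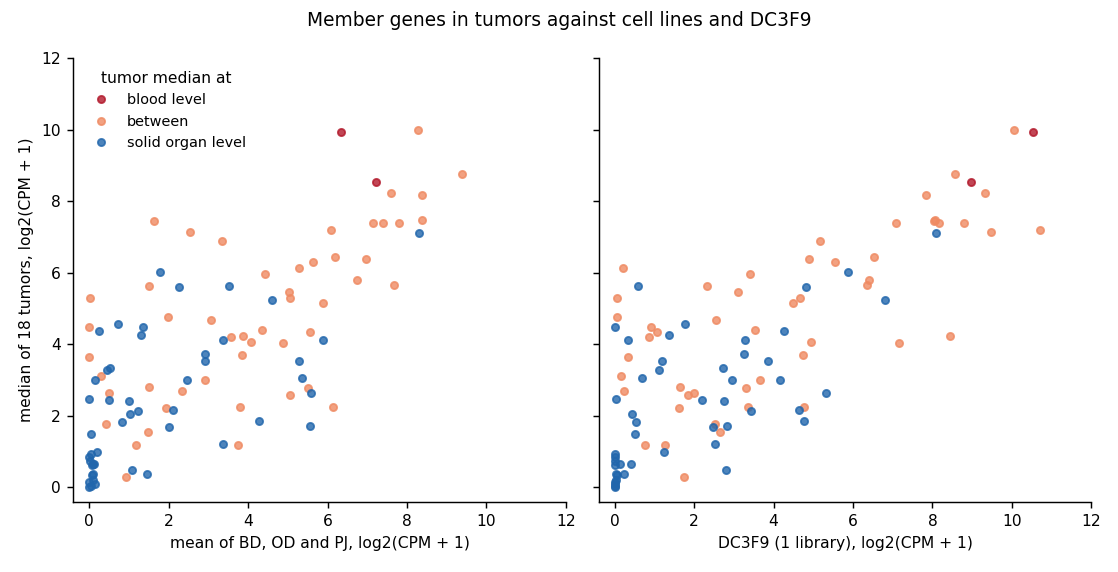
The median level of the 18 tumors against the mean of BD, OD and PJ (left) and against DC3F9 (right), all as log2(CPM + 1), for the 100 members, colored by the position of the tumor median between the controls. The 2 members at the level of blood have tumor medians of 8.54 and 9.93, and many members at the solid organ level lie near 0 in the cells.

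The highest means in the lines were those of ENSCAFG00000016076 (8.43 in BD, 10.24 in OD and 9.46 in PJ), ENSCAFG00000017135 (8.56, 7.54 and 9.05) and ENSCAFG00000011504 (8.21, 8.52 and 8.36). All 3 lay between the controls in tumors, with tumor medians of 8.75, 7.47 and 8.18, and were at 8.56, 8.06 and 7.84 in DC3F9. Levels are not divided by gene length, so an order of genes is one of read shares, and cells and tumors are set side by side only. SOD2 was at 8.32, 7.65 and 8.95 in the lines and at 8.08 in DC3F9, so DC3F9 lay among the lines (log2FC -0.15, SE 0.58, adjusted p = 0.921 by edgeR).

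The highest levels in DC3F9 were 10.71 for ENSCAFG00000002037, 10.52 for ENSCAFG00000005494 and 10.04 for ENSCAFG00000007203. The first was at 1.66 in BD, 8.996 in OD and 7.59 in PJ, the second at 7.99, 7.50 and 3.56, and the third at 7.32, 9.52 and 8.02. In each of them DC3F9 was above all 3 lines, and 1 line stood well below the others in the first and the second. Not all abundant tumor members were present in culture. ENSCAFG00000025287, with a tumor median of 5.30, was at 0.07 or less in all 4 cell libraries.

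In the test of the lines against DC3F9, edgeR called 0 of 92 members and 0% of 18121 genes, with 30 members and 2788 genes at an unadjusted p under 0.05. The smallest adjusted p of a member was 0.0918. DESeq2 called 24 members, against 9.91% of genes. In the lines 13 of them were higher, against 5.77% of genes, and 11 lower, against 4.14%. DC3F9 was above all lines in 39 of the members tested, against 19% of genes, and below all lines in 28, against 46.3%, and with 1 library this order has no replicate check. The median log2FC was -0.39 over the members and 0.23 over all genes.

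Single members differed between the lines and DC3F9 by several log2 units without passing the edgeR test. ENSCAFG00000001856, named after its values were seen, was at 0.16, 0.15 and 0.15 in the lines and at 4.15 in DC3F9 (log2FC -7.67, SE 0.66, adjusted p = 0.0918). It was the 1 member that edgeR called without a filter on low counts, against 0.116% of genes. ENSCAFG00000023324 was at 5.84, 6.87 and 4.93 in the lines and at 0.34 in DC3F9 (log2FC 7.51, SE 1.33, adjusted p = 0.121). ENSCAFG00000017557 was at 5.87, 5.56 and 4.65 in the lines and at 0.69 in DC3F9 (log2FC 5.65, SE 0.90, adjusted p = 0.109). HS51 was the highest tumor for the last 2, and they were found in all 3 lines, unlike ENSCAFG00000017772, which was at 0.01, 0.05 and 0.03 in the lines and at 0.51 in DC3F9.

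The 17 leukocyte signalling genes were drawn from the names at hand, with earlier results known, and are given beside the members. Their mean was 4.77 to 6.17 in the tumors, 4.56 to 5.28 in the lines and 5.10 in DC3F9, and HS51 was the highest tumor for 5 of 17. CSF2RB, the common beta chain of the GM-CSF, IL-3 and IL-5 receptors, was at 8.79 to 9.56 in blood, 3.23 to 6.89 in the solid organs and 5.35 to 8.78 in the tumors. RAC2, a GTPase of blood cells, was at 8.93 to 9.69 in blood, 2.63 to 7.96 in the solid organs and 4.68 to 8.11 in the tumors. NCF4 is a subunit of the phagocyte NADPH oxidase. It was at 7.95 to 8.58 in blood, 1.95 to 5.76 in the solid organs and 5.25 to 7.71 in the tumors. In 2 of the 17 genes the lowest blood control was below the highest solid organ control. LTC4S was at 0 to 0.11 in blood, 0.15 to 2.10 in the solid organs and 0.87 to 5.95 in the tumors. FGD2 was at 5.59 to 6.59 in blood, 2.80 to 7.17 in the solid organs and 2.56 to 8.495 in the tumors. edgeR called 0 of the 17 in each of the 4 tests.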

How the data were processed

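The authors deposited raw counts per gene, not normalized or filtered, for 32704 Ensembl identifiers. Their processing notes name cutadapt 3.7 for trimming, STAR 2.7.10a for alignment, HTSeq 2.0.0 for counting and CanFam3.1 as the genome. The counts came in 1 table for tissues and blood and another for cells. The strand option and annotation release are not given in the sources used here, so genes that overlap or are nearly identical may share reads. Tissue and blood libraries were globin-depleted. For the cell libraries the labels name the same kit and the methods an mRNA kit.

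From these counts, log2(CPM + 1) used column totals and a pseudocount of 1. Groups were tested with edgeR 4.0.16 in R 4.3.3 (TMM factors, filterByExpr, quasi-likelihood test, Benjamini-Hochberg adjustment over all genes tested), with DESeq2 1.42.0 as the alternative test; limma 3.58.1 was loaded by edgeR. All 100 members passed the filter in HHS against HS and in spleen against other tumors, 99 in lung against liver tumors and 92 in the cells. The SE given with a log2FC was the size of that log2FC divided by the square root of edgeR's F statistic, not a fitted standard error. The edgeR tests were also run on simulated counts. That outcome is not given here, so the power of each test is not stated. Python 3.11.15, numpy 2.4.6, pandas 2.3.3 and matplotlib 3.10.9 made the descriptions and figures. The floor of 3 counts was 0.0166 to 0.0366 CPM and covers counting error only. The tumors came from 18 dogs, and nothing states whether the solid organ controls share one. Each cell library was 1 culture.

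The members and gene lists were chosen with earlier results of these data known. Members named were those with a symbol, the 3 largest differences and both genes at the edge of the list, the 3 highest and 3 lowest tumor medians, the 3 largest SDs, the 3 highest r, the 3 highest levels in DC3F9 and in the lines, and the 3 highest and lowest log2FC among called members. Names were found for 1126 identifiers in the supplementary tables, RefSeq matched 0, and no coordinates or sequences are given. Alternatives were another rule for members, other size factors, filters and cutoffs, and leaving out libraries. Cell line DH82 is not analysed here.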

Additional observations from a re-analysis of the deposited data

Results flagged for a closer look

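In lung and liver tumors, 50 sets of values, of the named members and of the median member, were screened for a sample far from the rest. Dixon's ratio of that sample's gap to the range picked out 4. Chance picks about 1 in 20 among normal values that were not chosen by their spread. Many of the named members were chosen by their values in these same tumors, so the 4 are not set against chance. ENSCAFG00000010339 was at 6.59 in the lung tumor HS47 and at 0.01 to 0.20 in the other 5 lung tumors. ENSCAFG00000017557 was at 4.55 in the lung tumor HS52 and at 2.50 to 3.11 in the others. ENSCAFG00000023324 was at 0.95 in the liver tumor HS50 and at 3.99 to 4.41 in the others. ENSCAFG00000040152 was at 0.18 in the liver tumor HS33 and at 0 to 0.02 in the others, a level at which few reads decide the value.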

How the results depend on the processing

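Choosing the members by TMM-scaled totals, without the liver control, with a pseudocount of 0.1 or without each blood control kept 74 to 94 of the 100 genes. Over these lists and those of 50 and 200 genes, 60% to 71% of members had all tumors below blood and 47% to 58% had a tumor median above the solid organs, and HS51 had the highest median each time. The median tumor level moved only with the pseudocount of 0.1, to 1.88. With TMM-scaled totals and the same members, 3 were at the level of blood, 50 between and 47 at the solid organ level, a check added after the data were seen.

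DESeq2 called 1 member in lung against liver tumors (0.56% of genes), 9 in spleen against other tumors (2.26%) and 24 in the lines against DC3F9 (9.91%), and without a filter on low counts edgeR called 1 member, ENSCAFG00000001856, in the lines (0.116% of genes). In spleen tumors leaving out either sample gave 0 (without HS51) to 10 calls (without HS29). ENSCAFG00000019877 was no longer called with a filter of 1 CPM (adjusted p = 0.0572) or in HS tumors alone (adjusted p = 0.0848), nor was ENSCAFG00000017557 in HS tumors alone (adjusted p = 0.0581). The log2FC of SOD2, never called, turned to -0.0027 in HHS with a filter of 1 CPM. Samples were then left out 1 at a time, from the HHS tumors, the spleen tumors or the lines and not from the groups they were compared with. The log2FC of SOD2 ran from -0.25 to 0.26 in HHS against HS, turning negative without HS41 or HS46. It ran from -0.87 (without HS51) to 0.95 in spleen tumors, and from -0.54 to 0.11 (without OD) in the lines. The causes were not tested. No paired analysis was possible because the labels give no replicate numbers that tumors, controls or cells share.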
